A study of Mus musculus with 2 samples.

Results

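The regions described here are NANOG peaks whose centres are rich in guanine and cytosine. NANOG, a homeodomain protein, helps to keep embryonic stem cells pluripotent. Its binding was mapped by sequencing the DNA that a NANOG antibody pulled down from fixed chromatin (ChIP-seq), in the line E14TG2a.4, male embryonic stem cells of the mouse strain 129/Ola. A peak was a member when at least 60% of the bases within 50 bp to either side of its midpoint were G or C on the mouse genome build mm9, and 185 of 13341 series-level peaks (1.39%) met this rule. The rule read the genome sequence alone and used no ChIP value.

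Both libraries belonged to 1 group of 2 biological replicates with 1 technical replicate each, immunoprecipitated with a NANOG antibody. The labels give the embryonic age of the line's source as 3.5 days and the same donor for both, so the replicates are samples of a single cell line, and no treatment or genotype was compared. The replicate 1 list held 22082 mm9 peaks and the replicate 2 list 6618. Read depth is unknown. A control experiment that the labels mention as possible was not used, and peak lists hold no RNA with which to check the identity of the cells. Intervals of shares are exact 95% Clopper-Pearson intervals, which cover counting error alone. Peaks are not independent replicates, and the series-level list carries no replicate error.

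Most CpG dinucleotides of the mouse genome are methylated, and they are scarce except in CpG islands, GC-rich stretches found at many promoters. In embryonic stem cells NANOG sites are best known at distal enhancers, often beside sites of SOX2 and OCT4, whose recognition sequences are rich in A and T. Krüppel-like factors (KLF) and SP proteins recognise GC-rich sequences instead, the CACCC-type site and the GC box. A peak centred on GC-rich DNA can therefore lie in a CpG island or in GC-rich DNA with few CpGs.

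The sequences below show both kinds. They are central windows, 50 bp to either side of the midpoint, on the mm9 plus strand, read 5′ to 3′, and none overlaps an annotated exon. The first 3 are shown for CpGs near a transcription start site (TSS), with every CpG in capitals, and lie near Map3k3 (chr11:105945551-105945651), Nr5a2 (chr1:138849484-138849584) and Fzd2 (chr11:102464827-102464927).
Map3k3: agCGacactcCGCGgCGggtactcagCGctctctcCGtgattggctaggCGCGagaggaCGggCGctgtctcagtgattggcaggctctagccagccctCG
Nr5a2: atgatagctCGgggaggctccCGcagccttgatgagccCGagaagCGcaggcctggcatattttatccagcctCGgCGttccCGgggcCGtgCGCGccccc
Fzd2: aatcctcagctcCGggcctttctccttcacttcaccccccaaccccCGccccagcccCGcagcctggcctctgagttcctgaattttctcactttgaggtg

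The next 4 centres belong to peaks of high enrichment away from a TSS, nearest to Pou5f1 (chr17:35641545-35641645), Fzd7 (chr1:59529736-59529836), Kcnk5 (chr14:21036353-21036453) and Ggnbp1 (chr17:27178020-27178120). Capitals mark CpGs in the Pou5f1 and Ggnbp1 centres and matches to the KLF motif, GGGNGTGG on either strand, in the Fzd7 and Kcnk5 centres. The Ggnbp1 centre is shown for its run of guanines.
Pou5f1: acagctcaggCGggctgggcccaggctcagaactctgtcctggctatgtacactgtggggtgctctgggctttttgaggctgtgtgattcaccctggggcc
Fzd7: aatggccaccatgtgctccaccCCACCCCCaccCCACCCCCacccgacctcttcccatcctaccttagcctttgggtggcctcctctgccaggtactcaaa
Kcnk5: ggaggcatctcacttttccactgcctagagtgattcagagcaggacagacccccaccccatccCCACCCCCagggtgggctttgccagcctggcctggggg
Ggnbp1: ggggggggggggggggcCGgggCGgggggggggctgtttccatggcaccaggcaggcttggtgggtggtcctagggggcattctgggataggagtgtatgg

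The last 2 are centres of neighbouring members in a stretch of chromosome 6 described further on, and capitals mark the 72 bp that both hold in the same letters. The first is chr6:114493347-114493447 and the second chr6:114495727-114495827.
Hrh1 neighbour, first: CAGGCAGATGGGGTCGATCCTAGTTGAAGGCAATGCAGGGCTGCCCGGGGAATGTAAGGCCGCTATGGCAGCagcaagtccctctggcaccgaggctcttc
Hrh1 neighbour, second: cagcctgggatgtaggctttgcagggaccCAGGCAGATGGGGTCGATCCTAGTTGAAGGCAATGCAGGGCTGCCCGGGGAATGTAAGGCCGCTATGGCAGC

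The members spanned a G+C content from 60.4% to 77.2%, with a median of 62.4%, against a median of 45.5% in the other 13156 peaks. The highest, with 78 G or C bases, belonged to a peak 94 bp downstream of a TSS of 1500032L24Rik. Just inside the threshold were 47 peaks with 61 G or C bases (median enrichment 6.04, 17.0% at promoters) and 43 with 62 (6.71 and 11.6%). Just outside were 64 peaks with 60 such bases (6.54 and 9.38%) and 78 with 59 (5.96 and 11.5%). GC-rich centres made up 1.39% of the series-level list, 1.97% of the replicate 1 list and 1.06% of the replicate 2 list, against 2.02% of windows of the same length tiled over the assembled genome. Members lay on 20 of the 21 assembled chromosomes, with 18 each on chromosomes 5 and 17, and had 178 different nearest protein-coding genes.

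GC-rich centres lay at promoters far more often than the other peaks did. A promoter is here the 1 kb to either side of the TSS of any annotated protein-coding transcript. Of the members, 43 were promoter peaks, 23.2% (17.4 to 30), against 589 of the other peaks, 4.48% (4.13 to 4.84), and 4.74% of all peaks. The odds ratio was 6.46 (4.44 to 9.25), with p = 4.48e-18 by Fisher's exact test, two-sided and adjusted by the Benjamini-Hochberg method over 7 comparisons. Among the 43, 27 had their centre within 200 bp of the TSS. The strictest peaks gave no such call: with a q-value of at most 0.001, 3 of 40 members were promoter peaks, 7.50% against 3.66% of other such peaks (odds ratio 2.13, adjusted exact p = 0.427).

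The promoter share of the members was close to that of GC-rich DNA in general. Among GC-rich windows of the genome, 24.0% lay within 1 kb of a TSS, against 3.10% of all windows. Within 10 kb of a TSS lay 47.6% of the members and 48.2% of GC-rich genome windows. Exons were the exception by value: 3 members, 1.62% (0.336 to 4.67), were centred in an exon outside promoters, against 9.48% of GC-rich genome windows and 1.86% of other peaks. No difference in exon share between members and other peaks was called by Fisher's exact test (odds ratio 0.869, interval 0.176 to 2.61, adjusted exact p = 1). Introns held 30.8% of the members and 37.3% of other peaks, and intergenic DNA 44.3% of the members and 56.3% of other peaks. The direction of the exon odds ratio was not stable: it was above 1 in 7 of 8 alternatives, among them the replicate 1 list, with 3.22% of its GC-rich centres and 1.97% of its other peaks in exons (odds ratio 1.65, adjusted exact p = 0.0799). Of these only the replicate 2 list gave a call, with 7.14% of its 70 GC-rich centres and 1.97% of its other peaks (odds ratio 3.83, adjusted exact p = 0.0178). Neighbouring genome windows are not independent and were not tested against the members.

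The median distance from centre to TSS was 10.7 kb for the members (quartiles 1.39 and 54.4 kb) and 28.3 kb for other peaks. Beyond 100 kb lay 21 members, 11.4%, and 23.2% of other peaks. The band from 1 to 10 kb held 24.3% of the members and 23.4% of other peaks. The band from 10 to 100 kb held 41.1% of the members and 48.9% of other peaks.

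**Figure D1:**
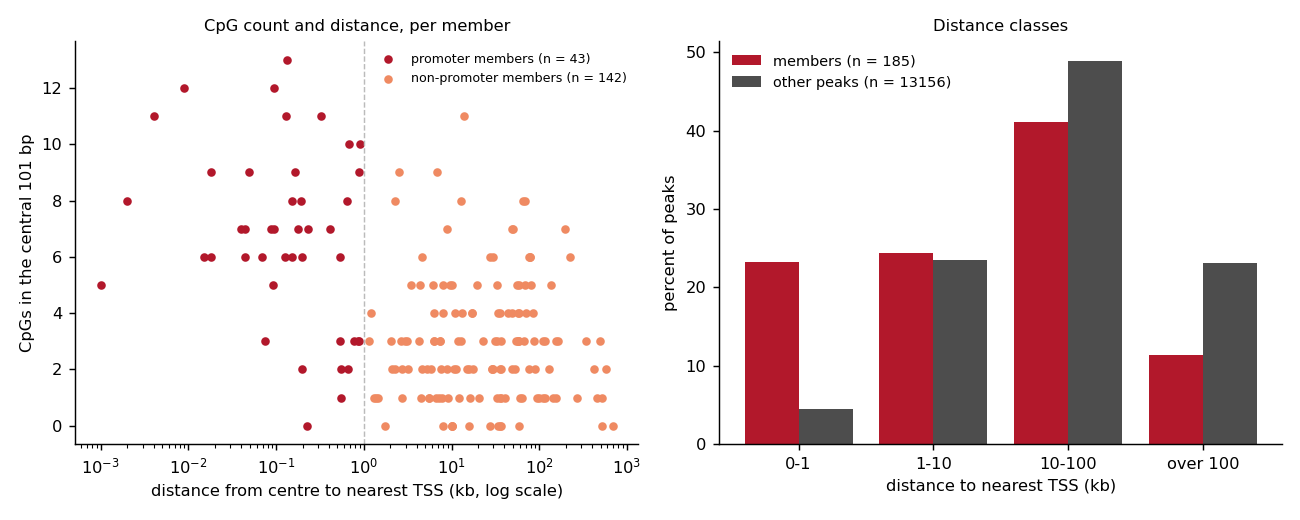
Left, CpG count within 50 bp of the centre of each member against the distance in kb (log scale) from peak centre to the nearest protein-coding TSS, with promoter members in red and other members in orange and the dashed line at 1 kb; a centre on the TSS base is drawn at 0.001 kb. Right, percent of members (red) and of other peaks (grey) in 4 distance bands: 23.2% of the members and 4.48% of other peaks lay within 1 kb.

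CpG content separated the members into groups. Members held a median of 3 CpGs at the centre (quartiles 2 and 6, at most 13), and other peaks a median of 1. A centre with no CpG at all was found in 14 members, 7.57%, and in 44.8% of other peaks. These counts were read in the window whose C and G content chose the members, so both differences follow in part from the rule. Mean CpG counts were 6.67 at promoter members and 2.96 at the other members, against 4.29 in GC-rich genome windows. A centre was called CpG-dense when its observed number of CpGs was at least 0.60 of the number expected from its C and G content, the ratio used to define CpG islands. By this measure 46 members, 24.9% (18.8 to 31.7), were CpG-dense, against 4.47% (4.12 to 4.84) of other peaks. The odds ratio was 7.07 (4.90 to 10.05; Fisher's exact test, adjusted exact p = 3.16e-20). The ratio allows for C and G content but is taken in the window that the rule used. Of GC-rich genome windows, 26.7% were CpG-dense, close to the share of the members. The test against other peaks therefore cannot tell the members from GC-rich DNA in general. With a q-value of at most 0.001, 10% of the members and 4.22% of other such peaks were CpG-dense, and the comparison missed the threshold (odds ratio 2.52, adjusted exact p = 0.313).

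Of the 46 CpG-dense members, 29 were at promoters, and most members away from promoters were not CpG-dense. Of the 43 promoter members, 29 were CpG-dense, with a median of 7 CpGs. Of the 142 other members, 17 were (12%), with a median of 3 CpGs. Among peaks more than 1 kb from a TSS, the CpG-dense share was still larger in the members than in other peaks, 12% against 3.98% (odds ratio 3.28, Fisher's exact test, adjusted exact p = 0.000159). This test too was made in the window that the rule used and has the same limit. The largest group of members, 125 of 185, was neither promoter nor CpG-dense.

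Against GC-rich DNA in the same neighbourhood, no difference in CpG content was called at the members. For 137 members a window of the same length with a G+C content within 5 percentage points of the centre was found between 300 and 1000 bp away, at a median of 400 bp, and for 48 none was found. The centre held more CpGs in 60 pairs, the flank in 52, and 25 were equal (exact sign test, two-sided, p = 0.509). The means were 3.90 CpGs at the centre and 3.74 in the flank. Mean G+C content was 62.7% at these centres and 60.9% in their flanks, so a small gap in G+C remained. This gap was not measured for the other flank sets below. Of these flanks, 71 lay wholly inside the peak. Against flanks 1000 to 2000 bp away the centre held more CpGs in 66 pairs and fewer in 40 (exact sign test, p = 0.0148). A call was also made in each replicate's own list, with flanks 300 to 1000 bp away. For replicate 1 the centre held more CpGs in 174 pairs and fewer in 110 (exact sign test, p = 0.000175). For replicate 2 it held more in 34 and fewer in 16 (exact sign test, p = 0.0153). The call thus depended on the flanks and on the peak list.

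Within 700 bp of the centre, the mean G+C content was higher at promoter members than at the other members, and at 800 and 1000 bp to the left it was lower. At promoter members the mean G+C content was 64.1% at the centre, 57.9% in the window 100 bp to the left and 59.7% in that to the right, and 52.2% at 400 bp to the right. At the other members it was 62.4% at the centre and 51.9% in the windows 100 bp to either side. The peak at the centre follows from the rule. Other peaks averaged 45.2% at the centre and 45.9% at 100 bp. Mean CpG counts at 200 bp to the left were 5.70 at promoter members, 1.87 at the other members and 1.08 at other peaks.

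**Figure D2:**
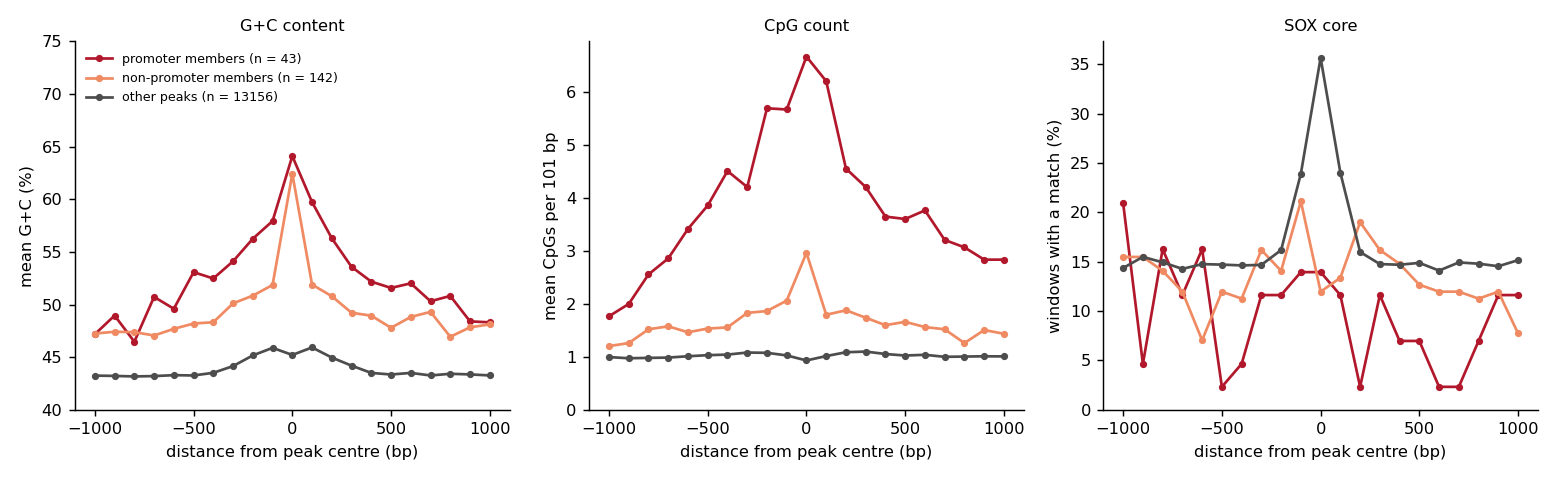
Mean G+C content in percent, mean CpG count and percent of windows with a SOX core, in windows that reach 50 bp to either side, every 100 bp from -1000 to 1000 bp of the peak centre (lower coordinates to the left), for promoter members (red), other members (orange) and other peaks (grey). The G+C maximum at members follows from the rule; at the centre the SOX core is found in 14.0% of promoter members and 12% of the other members, against 35.7% of other peaks.

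Runs of a single base added to the G+C content of some members. A run of at least 6 G or 6 C occurred in 15.7% of member centres, 12.4% of flanks of like G+C, 14.7% of GC-rich genome windows and 2.95% of other peaks. The longest was 28 bases. The runs were at 18.3% of members away from promoters and 6.98% of promoter members.

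The motif content of the member centres was counted in the window whose G+C content chose the members, so that a larger share with GC-rich motifs and a smaller share with AT-rich motifs than in other peaks follows in part from the rule, and the shares are given without a test. In all, 18 short motifs were searched on both strands. The KLF site GGGNGTGG was in 34 members, 18.4%, against 3.61% of other peaks. The GC box GGGGCGGGG, which SP proteins bind, was in 8 members, 4.32%, against 0.129% of other peaks. The motif of TFCP2L1, a pluripotency factor of the CP2 family, was in 8 members, 4.32%, against 1.14% of other peaks, and no match was at a promoter member. The E2F site GGCGGGAA was in 3 members, 1.62%, against 0.167% of other peaks. GC-rich genome windows were nearer to the members by value. They held the KLF site in 11.9%, the GC box in 3.05%, the TFCP2L1 motif in 2.44% and the E2F site in 0.585%.

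The SOX core and the NANOG homeodomain site had smaller shares in the members than in other peaks and larger ones than in GC-rich windows of the genome, by value. The SOX core, CATTGT or CTTTGT, was in 23 members, 12.4% (8.05 to 18.1), against 35.7% of other peaks and 4.96% of GC-rich genome windows. The NANOG homeodomain site TAATGG was in 4 members, 2.16%, against 6.92% of other peaks and 0.805% of GC-rich genome windows. No member centre held the OCT octamer ATGCAAAT or the SOX2-OCT4 composite. For 0 of 185 members, the limit of 3 counts is 1.62% and the exact upper limit 1.97%. Other peaks held the octamer in 2.38% and the composite in 1.75%, and GC-rich genome windows held the octamer in 0.0583%.

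Against GC-rich sequence beside them, no motif was called at the member centres. In the 137 pairs, 0 of 18 motifs (0%) passed the exact McNemar test with adjustment, and 0 had an unadjusted p under 0.05. The SOX core was in 17 centres and 9 flanks (exact p = 0.169, unadjusted). The ZIC family motif CAGCAGG was in 18 centres and 9 flanks (exact p = 0.0931, unadjusted), against 6.58% of GC-rich genome windows. The KLF site was in 22 centres and 17 flanks, the TFCP2L1 motif in 5 centres and 7 flanks, and the GC box in 6 centres and 7 flanks. Of the 18 motifs, 10 were more frequent at the centre, 4 in the flank and 4 equal.

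This comparison had few pairs. Larger sets gave calls in the same direction for SOX and ZIC, while some other settings turned the direction of SOX or of ZIC. Among 341 pairs from the replicate 1 list, the SOX core was at the centre alone in 41 pairs and in the flank alone in 15 (exact McNemar test, adjusted exact p = 0.0123), and the ZIC motif in 41 against 17 (adjusted exact p = 0.0201). With members taken from 55% G+C upward, the SOX core was at the centre alone in 125 of 747 pairs and in the flank alone in 60 (adjusted exact p = 1.81e-05), and the ZIC motif in 120 against 27 (adjusted exact p = 6.14e-14). In both of these sets 2 of 18 motifs were called. For the 185 members the direction was the same and the test did not pass.

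Around the centres the share with a SOX core varied with no common direction. At members away from promoters it was in 12% of centres and in 21.1% and 13.4% of the windows 100 bp to the left and right, but in 11.3% of those 400 bp to the left. At promoter members it was in 14.0% of centres and in 14.0% and 11.6% of the windows 100 bp to the left and right, while at other peaks it was in 35.7% of centres and in 23.9% and 24.0% of those windows. Within 200 bp of the centre, 96 members (51.9%, 44.4 to 59.3) and 69.3% of other peaks held it, and within 500 bp 76.2% and 88.4%. The OCT octamer, absent from all member centres, was within 500 bp of 14 centres, 7.57%, against 10.6% for other peaks. The KLF site was within 500 bp of 55.1% of member centres and 29.8% of other centres. These wider shares were added after the central values were known and are given without a test. The deposited mm9 lists give no summit, so the midpoint of a region need not be the point of highest signal.

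**Figure D3:**
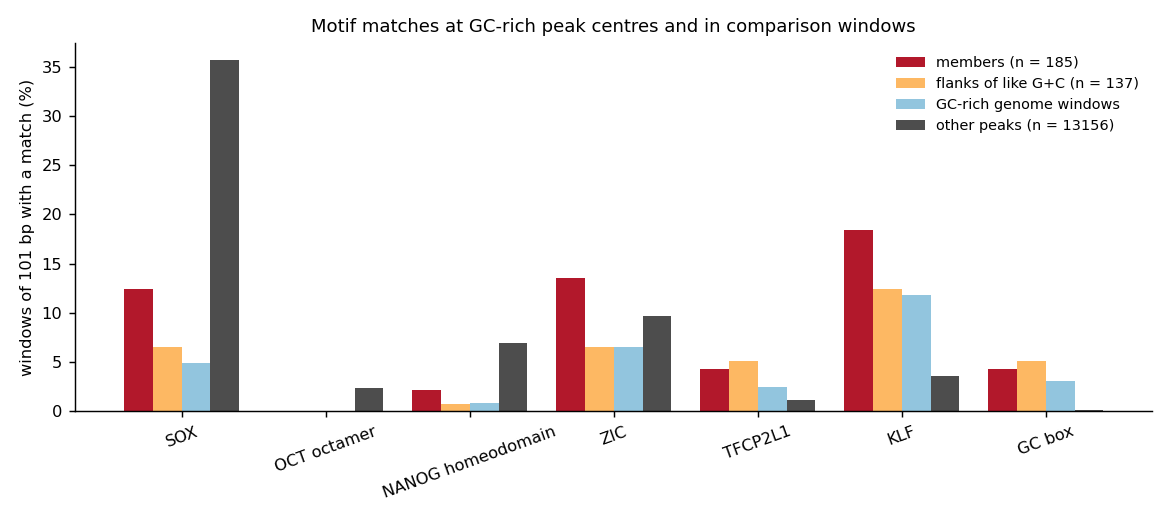
Percent of windows (50 bp to either side of a centre or point) with at least 1 match on either strand for 7 of the 18 motifs, in member centres (red), flanks of like G+C (yellow), GC-rich windows of the genome (blue) and other peak centres (grey). The SOX core is in 12.4% of the members, 4.96% of GC-rich genome windows and 35.7% of other peaks. The KLF site is in 18.4% of the members, 11.9% of GC-rich genome windows and 3.61% of other peaks.

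GC-rich centres were weaker peaks than the others in the series-level list. The authors' enrichment, a ratio whose reference is not stated, had a median of 6.21 in the members (quartiles 4.70 and 8.22, from 2.54 to 36.25) and 7.55 in other peaks (quartiles 5.54 and 11.41). Lower values were not particular to the members: the median was 6.54 in peaks of 55 to 60% G+C and 6.96 in those of 50 to 55%. Above the median of the list, 7.38, were 57 members, 30.8% (24.2 to 38.0), and 50.2% of other peaks (odds ratio 0.441, interval 0.316 to 0.609, Fisher's exact test, adjusted exact p = 2.74e-07). The same was seen away from promoters, with 33.8% of the members and 48.9% of other peaks above the median of those peaks (adjusted exact p = 0.000604). In the replicate 2 list, whose own GC-rich centres numbered 70, the shares were 48.6% and 48.8% (odds ratio 0.989, adjusted exact p = 1). At a q-value of at most 0.001 the shares were 35% in the members and 49.5% in other peaks, and the call was lost (odds ratio 0.55, adjusted exact p = 0.313). Among members, enrichment had little rank correlation with G+C content (Spearman's coefficient -0.02, n = 185) and some with width (0.34). Peak width had medians of 857 bp in the members and 853 bp in other peaks.

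**Figure D4:**
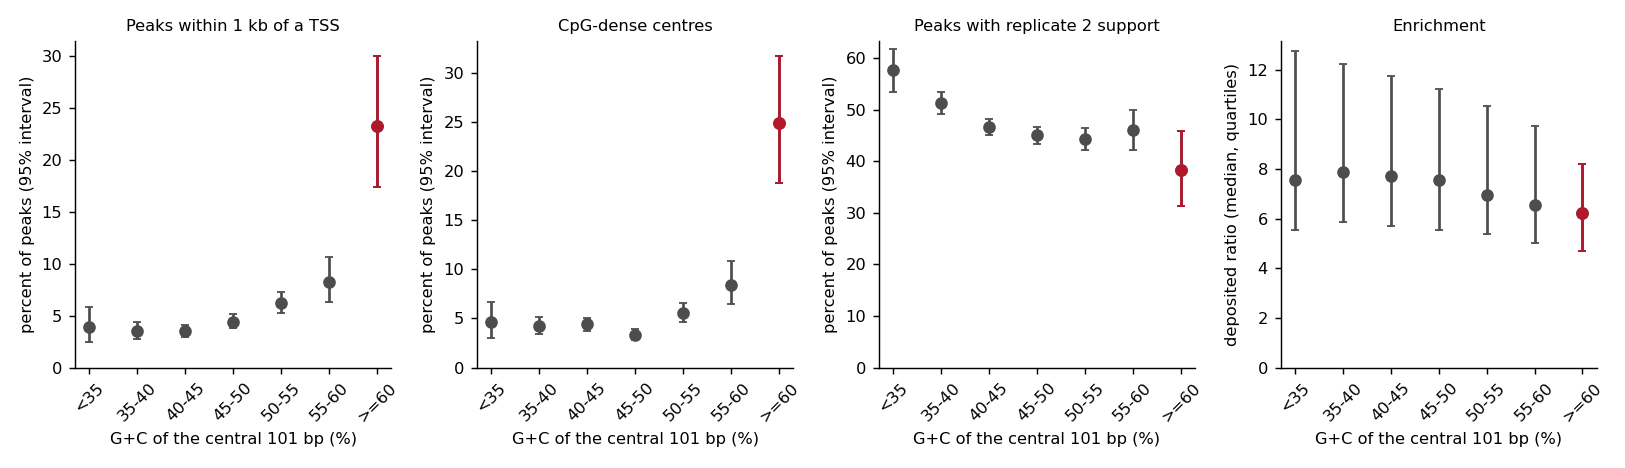
Percent of peaks within 1 kb of a TSS, with a CpG-dense centre and with replicate 2 support (points with exact 95% intervals), and median enrichment with quartiles, in 7 classes of G+C content at the centre from low to high; the members are the class in red. The promoter share is 23.2% in the members and 8.28% in the next lower class.

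The strongest members included a peak upstream of Pou5f1, which encodes OCT4. It lay 1.39 kb upstream of the TSS (chr17:35640581-35642609) and had an enrichment of 35.07 in the series-level list, 69.60 in the replicate 1 list and 40.60 in the replicate 2 list. Its centre, shown above, held 1 CpG. Only the peak 2.09 kb upstream of Cidea, a lipid droplet protein, was higher, at 36.25 in the series-level list, 73.51 in replicate 1 and 20.06 in replicate 2. The third lay 90.4 kb downstream of the TSS of Smad7, an inhibitor of TGF-beta signalling, at 31.55, 61.47 and 26.30. Its centre was classed as intronic, which counts introns of any protein-coding gene and not only of the nearest. The peak 12.1 kb downstream of the TSS of Cdc42ep3, an effector of the GTPase CDC42, had 25.67, 51.06 and 22.92 in the same lists.

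The rest of the 10 strongest lay between 9.21 kb and 115 kb from a TSS and were in both replicate lists. They were nearest to Kcnk5, a potassium channel, at a series-level enrichment of 22.15, to 9530068E07Rik at 20.98, to Asb13 at 20.81, to Fzd7, a Frizzled receptor for WNT ligands, at 20.14, to Frmd5 at 19.47 and to Ggnbp1 at 19.13. Their centres held between 0 and 6 CpGs, and 1 of these 6, that of Asb13, was CpG-dense. None of the 10 strongest was a promoter peak.

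Promoter members had a lower maximum, but their median series-level enrichment was 6.21, against 6.125 in the other members. The highest promoter member was 868 bp upstream of Fzd2, another Frizzled receptor. It had 16.28 in the series-level list, 31.55 in replicate 1 and 14.81 in replicate 2. A peak 326 bp upstream of Map3k3, a kinase of the MAP kinase cascades, had 12.92, 25.37 and 15.76, and the peak at Zfp719 had 12.92, 24.39 and 7.64. The peak at Mthfd1, an enzyme of folate metabolism, had 11.24, 22.12 and 11.94. The peak at Os9, a lectin of protein quality control in the endoplasmic reticulum, had nearly the same enrichment in both replicate lists, 13.99 in replicate 1 and 14.33 in replicate 2, with 7.89 in the series-level list. The peaks at Rac1, a small GTPase that acts on the actin cytoskeleton, at 10.40 in the series-level list and 20.17 in replicate 1, and at Cep70, a centrosomal protein, at 8.56 and 16.91, had no replicate 2 peak. Gm10295 and Jmjd5, both at 8.05 in the series-level list, had peaks in both.

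The centres described here as richest in CpG were at promoters too. They were those of Dcaf12l1 with 13 CpGs and a series-level enrichment of 6.88, Dcaf11 with 12 and 6.88, 1500032L24Rik with 12 and 4.53, and Map3k3 with 11 and 12.92. Those at Dcaf12l1 and 1500032L24Rik were in the replicate 1 list alone, at 13.66 and 8.13.

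Few genes of any list had a GC-rich centre near them, as did few of all protein-coding genes, and the core and naive pluripotency list had a larger share by value. Of 31 core and naive pluripotency genes, 3 (9.68%) had a member within 50 kb of a TSS, namely Pou5f1, Utf1 and Nr5a2, and 27 had any peak. Of all protein-coding genes, 381 of 22225 (1.71%) had a member that close, and 45.2% had any peak. The member near Utf1, a chromatin factor of undifferentiated cells, lay 6.38 kb downstream of the TSS with 13.42 in the series-level list, 25.04 in replicate 1 and 15.76 in replicate 2. The member near Nr5a2, an orphan nuclear receptor, lay 673 bp downstream of a TSS with 10 CpGs, at 7.38 in the series-level list and 13.99 in replicate 1, without a replicate 2 peak. The lists differ in how many of their genes have any peak, and these counts are a description only.

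Other lists had between 0 and 2 genes each, and over all protein-coding genes the share with a member that close was 1.71%. WNT signalling had Fzd7 and Fzd2, 2 of 31. The later-lineage list had Foxl2 and Foxa2, 2 of 37, with the member near Foxl2 at the promoter of Faim. The developmental homeobox list had Pax2, 1 of 46, 36.5 kb upstream at 11.91 in the series-level list, 24.39 in replicate 1 and 14.81 in replicate 2. Jarid2, a cofactor of the polycomb repressive complex, was 1 of 30 polycomb and chromatin genes, with a promoter peak at 3.69 in the series-level list and 6.51 in replicate 1. Gadd45g, 1 of 17 genes of DNA methylation and its removal, had a promoter peak with 8 CpGs at 5.87 in the series-level list and 11.06 in replicate 1. BMP and Nodal signalling had Nodal, 1 of 28, LIF signalling had Lif, 1 of 16, ribosomal proteins had Rps18, 1 of 41, and housekeeping genes had Hsp90ab1, 1 of 27. No member lay within 50 kb of the 19 primed and formative genes, the 39 Hox genes, the 25 genes of FGF signalling or the 27 genes of liver, muscle and blood. In the same order, 84.2%, 71.8%, 80% and 22.2% of these genes had any peak that close. With a share of 1.71% over all genes, lists of this size can hold none, so no conclusion is drawn from their absence.

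Replicate 1 supported nearly all peaks of the series-level list, and fewer of the members. Sharing at least 1 bp with a replicate 1 peak were 175 members, 94.6% (90.3 to 97.4), and 99.7% of other peaks, against 99.6% of all peaks (odds ratio 0.0520, Fisher's exact test, adjusted exact p = 2.47e-09). At a q-value of at most 0.001, all 40 members and all other peaks had a replicate 1 peak. Replicate 2 supported 71 members, 38.4% (31.3 to 45.8), and 47.0% of other peaks, against 46.9% of all peaks (odds ratio 0.703, interval 0.514 to 0.956, adjusted exact p = 0.0299). Within 10 strata of enrichment the odds ratio for replicate 2 was 1.35 (0.907 to 2.02; Mantel-Haenszel test, n = 13341 peaks, adjusted p = 0.197), an interval that spans 1. The replicate 2 call was lost without the chromosome 6 stretch described below (adjusted exact p = 0.0581), with G+C thresholds of 55% (adjusted exact p = 0.169) or 65% (adjusted exact p = 0.582), with a window of 100 bp to either side (adjusted exact p = 0.119), at a q-value of at most 0.001 (adjusted exact p = 1) and away from promoters (adjusted exact p = 0.135).

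Among the members, 67 were in both replicate lists, 108 in that of replicate 1 only, 4 in that of replicate 2 only and 6 in neither. Those in both lists had a median series-level enrichment of 10.91, and the 114 without a replicate 2 peak 5.29. Of promoter members 14 of 43 (32.6%) had a replicate 2 peak, and of the others 57 of 142 (40.1%). The support peaks were not all significant on their own: 125 of the 175 replicate 1 peaks under members (71.4%) had a q-value of at most 0.05, as did 77.6% of those under other peaks, and 49 of the 71 replicate 2 peaks (69.0%), as did 73.2% of those under other peaks.

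Among peaks that passed the filter of a peak in both replicate lists, the ratio of replicate 2 to replicate 1 enrichment was more often high in the members. The ratio of replicate 2 to replicate 1 enrichment had a median of 0.489 in the 67 members of both lists and 0.425 in the 6179 other peaks. It was above the common median in 50 of 67 members, 74.6%, and in 49.7% of other peaks (odds ratio 2.97, Fisher's exact test, p = 6.17e-05). Within 10 strata of series-level enrichment the odds ratio was 2.81 (1.57 to 5.05; Mantel-Haenszel test, n = 6246 peaks, p = 0.000226). The 2 lists were scaled separately, so only the order of peaks by this ratio carries meaning. Only peaks in both lists enter it, 36.2% of the members and 47.0% of other peaks. A weak peak enters only where its replicate 2 value was high enough for a peak. Whether this filter shaped the difference was not tested. This comparison was chosen after the values were seen. The difference was also seen away from promoters, with 70.9% of the members and 49.8% of other peaks above the median (Fisher's exact test, p = 0.00175). It was not particular to the members. Of 283 CpG-dense peaks in both lists, members included, 58.0% were above the median, against 49.6% of the 5963 others (Fisher's exact test, p = 0.00733).

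**Figure D5:**
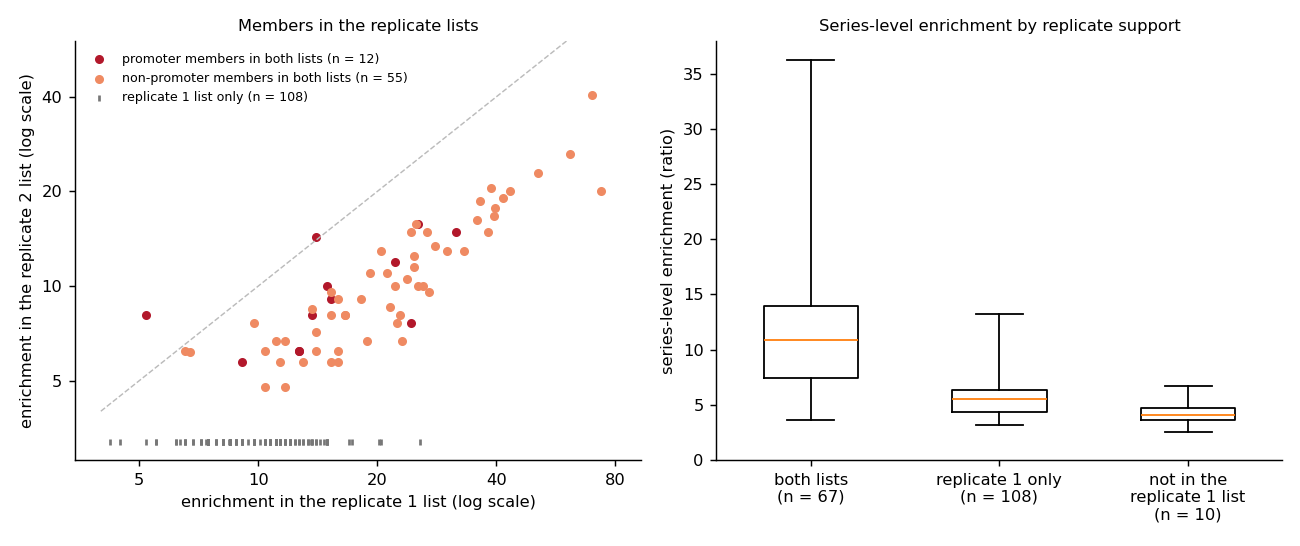
Left, enrichment of members in the replicate 2 list against the replicate 1 list (log scales, dashed line at equal values), for 12 promoter members (red) and 55 other members (orange) in both lists; grey ticks at the bottom mark the replicate 1 enrichment of the 108 members without a replicate 2 peak that were in the replicate 1 list. Right, series-level enrichment by replicate support (line at the median, box from quartile to quartile, whiskers to the lowest and highest value), with a median of 10.91 for members in both lists.

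Of the 10 members without a replicate 1 peak, 5 lay together on chromosome 6. Over 98.8 kb (chr6:114460789-114559610), with Hrh1 and Atg7 as nearest genes, 6 of 7 series-level peaks were members. Their enrichment ran from 2.54 to 4.87, with a median of 3.61, and their widths from 901 to 2334 bp. A replicate 1 peak overlapped 1 of them, a replicate 2 peak another, and the remaining 4 had neither. Not all of the 6 regions are independent in sequence: in 4 pairs of their centres a stretch of 46 to 72 bp was the same letter for letter, as in the pair shown above. The widest member, of 2334 bp, was in none of these pairs. No repeat annotation was used here. Without this stretch, 97.2% of the members and 99.7% of other peaks had a replicate 1 peak (odds ratio 0.103, Fisher's exact test, adjusted exact p = 0.000513). This stretch was singled out after its values were seen.

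The authors' mm10 lists, derived from the same 2 replicates, gave a second view of the promoter members, linked by gene symbol alone. Genes that share a promoter peak were counted separately. The 43 promoter members lay within 1 kb of a TSS of 48 genes, of which 45 were placed on mm10. For 26 of these, 57.8% (42.2 to 72.3), a summit of the authors' optimal mm10 peak set lay within 1 kb of the gene's 5′ end. Of genes with another promoter peak, 219 of 554 had one, 39.5% (35.4 to 43.7), and the odds ratio was 2.09 (1.08 to 4.10; Fisher's exact test, p = 0.0184). Genes with such a summit included Rac1, Fzd2, Map3k3 and Os9, and those without included Nr5a2, Jarid2 and Cep70. On mm10 the 5′ end of the gene counts and on mm9 any transcript start, so a peak at a start inside a gene could not be matched. Members and other promoter peaks differed in this respect. With the 5′ end of each gene as TSS on mm9, the odds ratio for promoters was 9.82, against 6.46 with any transcript start. Promoter members thus lay at gene 5′ ends more often than other promoter peaks did. Whether this shaped the odds ratio of 2.09 was not tested, so no conclusion is drawn from that odds ratio. The call was lost with the replicate 1 list in place of the series-level list (odds ratio 1.09, p = 0.633) and with the replicate 2 list (odds ratio 1.68, p = 0.276), both by Fisher's exact test.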

How the data were processed

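The members, the motifs and the gene lists were chosen with earlier results of these data known. The authors deposited mm9 lists for each replicate and for the series. Per the format's field order, each deposited mm9 peak has an enrichment ratio, the −log10 of its p-value and a q-value, here read as untransformed since it runs from 0 to 0.0215 in the series-level list. The deposited mm10 optimal and conservative sets give a signal per peak, of unstated scale, and a summit, and only the summit was used. Peak caller, aligner, depth and the way the replicates were combined are not given in the sources used here.

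G+C content, CpGs and motifs were counted on the mm9 genome within 50 bp of peak midpoints, on both strands for motifs; the counts were tested on simulated sequences. TSSs and exons came from 22367 protein-coding genes of GENCODE vM1, and mm10 gene ends from a GRCm38 gene table by symbol. Locations were assigned in the order promoter, exon, intron, intergenic. A flank was the nearest window of like G+C, from 300 to 1000 bp away in steps of 100 bp. Tests were two-sided: Fisher's exact test, the exact McNemar and sign tests, and the Mantel-Haenszel test with normal limits. The threshold for a call was 0.05 for the adjusted p. Peaks shared support when they overlapped by at least 1 bp. Genome windows were tiled end to end and left out where they held N. Named were the nearest genes of the 10 strongest members and the 10 strongest within 1 kb of a TSS, the 5 members with most CpGs, and up to 4 genes per list (1 of these genes is not reported here); other genes were chosen after their values were seen. Alternatives covered the G+C threshold and window, the q-value, the replicate lists, distance from a TSS, flanks, overlap and promoter width. Tools were SciPy 1.17.1, statsmodels 0.14.6, pandas 2.3.3 and NumPy 2.4.6 under Python 3.11.15, with matplotlib 3.10.9 for figures. Coordinates are 1-based, and mm9 and mm10 coordinates were never compared.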

Additional observations from a re-analysis of the deposited data

How the results depend on the processing

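Of the comparisons of members with other peaks or flanks, 56 values under an alternative kept their direction and side of the threshold, 12 lost a call, 5 gained one, 3 counts moved by over 1.5 times and 8 turned direction. The exon odds ratio turned at G+C thresholds of 65% (1.89) and 55% (1.30), with a window of 100 bp to either side (1.94), with promoters of 500 bp (1.10), with the 5′ end of each gene as TSS (1.55) and in both replicate lists. Replicate 2 support within strata turned when an overlap of at least 50% of the peak was required (0.95). With a q-value of at most 0.001 the odds ratios for promoters (2.13), CpG-dense centres (2.52), high enrichment (0.55) and replicate 2 support (0.894) missed the threshold, with 40 members left, and all peaks had replicate 1 support, so that no odds ratio could be had. The odds ratio for replicate 2 support also missed it at G+C thresholds of 65% (0.800) and 55% (0.900), with a window of 100 bp to either side (0.683), away from promoters (0.753) and without the chromosome 6 stretch (0.725, added after seeing the data). Within strata it passed at 55% (1.61, Mantel-Haenszel test, n = 13341 peaks, adjusted p = 2.52e-06). Motif calls against flanks numbered 2 at 55% and 1 for a window 300 bp downstream of any G+C. The planned tests of motifs against other peaks were not used, since the rule had set the base content of the same window. The share of unequal pairs with more CpGs at the centre was 0.623 for flanks 1000 to 2000 bp away and 0.735 for the window 300 bp downstream, which differs in G+C from the centre. The cause was not tested. Leaving out a replicate, with the list of the other in place of the series-level list, gave odds ratios from 7.94 to 9.67 for promoters, 7.50 to 8.66 for CpG-dense centres, 0.441 to 0.989 for high enrichment, 1.65 to 3.83 for exons and 1.09 to 1.68 for mm10 promoter genes, CpG shares from 0.613 to 0.680, and 0 to 2 motif calls against flanks. The ratio of replicate 2 to replicate 1 enrichment kept its call under its 5 alternatives, with odds ratios from 2.07 to 8.02. All 5 were added after seeing the data and took only peaks in both replicate lists. No paired analysis was possible because there was 1 group of samples. Unknown depth, midpoints in place of summits and 185 members limit what these comparisons can show.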
